A study of Mus musculus with 12 samples.

Results

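The sites described here are places in the mouse genome that carry histone H3 trimethylated at lysine 4 (H3K4me3) and that the deposited tables class as not bivalent. They were taken as the whole site class averaged in the table of H3K4me3 at non-bivalent sites, with all 6 of its library columns. From the steps of the deposited values, this class was inferred to hold 22595 sites, of 36170 in the 3 site lists of the series, which may share sites. The other lists are 2590 sites called serum bivalent and 10985 H3K27me3 sites that are not bivalent. The cells were mouse embryonic stem cells kept in serum with LIF. Per the labels, both cell lines carried a stably transfected ppy-cagg-ires-puro vector, which was empty in the vector control and encoded netrin-1, a secreted laminin-related protein, in the other line. Chromatin immunoprecipitation with sequencing (ChIP-seq) was made with an antibody to H3K4me3 in 3 libraries per cell line. How many transfected lines or cultures stand behind the 3 libraries is not stated, so a p-value here covers the spread of these libraries alone, which may be technical.

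H3K4me3 is laid down by SET1 and MLL complexes around the start sites of genes that are transcribed or poised for transcription. In embryonic stem cells it covers most CpG-rich promoters, and it usually lies on the nucleosomes that flank the start site. Promoters that also carry H3K27me3, the Polycomb mark, are called bivalent and belong mostly to developmental genes. H3K4me3 promoters without H3K27me3 include those of many housekeeping and metabolic genes. Only averages over the whole class were available, so no gene, coordinate or single site was analysed here. The table of these sites has coverage columns and distances, and strand-specific tag profiles were not analysed here.

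Coverage is the number of sequenced fragments lying over a position, averaged over the sites and scaled by the authors. All values were whole multiples of a step for each library, to within 0.02 of a step, so the coverage rests on countable fragments. If HOMER's usual scaling to 10 M tags was used, the inferred totals were 34.5 to 47.6 M tags in 5 libraries and 27.03 to 31.25 M tags in vector replicate 3, which had 6 solutions. At the centre this corresponds to 90.1 to 171 fragments per site and a counting error of at most 0.0701%. In the outermost bins it corresponds to 6.65 to 11.3 fragments per site and an error of at most 0.258%. These errors cover counting only, and differences between libraries were far larger. Vector replicate 3 stood apart from the other vector libraries in height and in decay, and lay among the netrin-1 libraries. Comparisons of the cell lines are therefore given with and without it. It was singled out after its values were seen, for lying among the netrin-1 libraries, so leaving it out favours separation of the lines. Of the 12 measures compared between the lines below, 3 had no overlap with it and 11 had none without it. Values without it are therefore a description with no test.

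At these sites H3K4me3 formed a narrow peak on broad shoulders, with its highest bin at 0 or -10 bp in every library. The summit reached 13.1, 11.8 and 21.1 in the vector libraries and 19.1, 23.1 and 23.7 in the netrin-1 libraries, given here and below in the order of replicates 1 to 3. Vector replicates 1 and 2 were thus low, and vector replicate 3 lay between netrin-1 replicates 1 and 2. Relative to the flank, the mean of the bins 3500 to 4000 bp from the centre, the summit stood 10.1 to 11.3 times higher in vector replicates 1 and 2 and 14.97 to 19.09 times higher in the other 4 libraries. How the sites were chosen and centred is not given in the sources used here. Slopes were read after a running mean over 5 bins. On its negative side the peak was steepest 125 and 155 bp from the centre in vector replicates 1 and 2, and 185 to 205 bp from it in the other 4 libraries. There the coverage changed by 1.89% to 2.40% of the summit per 10 bp. Fragments were inferred to be 204 to 208 bp long in the 5 libraries with 1 solution. Coverage is blurred over that length, so the positions of summit and slope describe the averaged coverage and not finer structure of the sites.

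**Figure D1:**
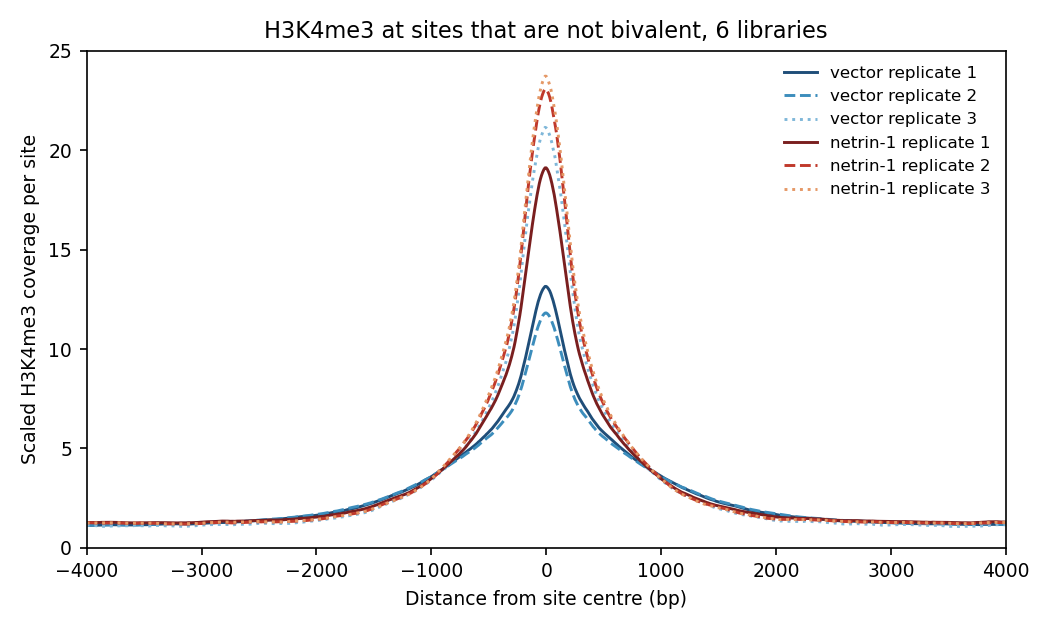
Scaled H3K4me3 coverage per site against distance from the site centre in bp, 1 line per library (vector in blue, netrin-1 in red). Vector replicates 1 and 2 peak at 13.1 and 11.8, the other 4 libraries at 19.1 to 23.7, and all 6 lines come closest together at -920 and 930 bp.

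The shoulders carried much of the signal. Of the area above the flank, 31.9% and 33.8% lay within 250 bp of the centre in vector replicates 2 and 1, against 42.8% to 46.5% in the other 4 libraries. Between 500 and 1000 bp lay 20.6% to 25.1% of the area in the 6 libraries. Between 1000 and 2000 bp lay 17.8% and 19.1% in vector replicates 1 and 2 and 11.02% in vector replicate 3, against 11.8%, 9.67% and 9.25% in the netrin-1 libraries. The shoulder share is the mean coverage from 500 to 1000 bp over that within 250 bp, both above the flank. It amounted to 0.357, 0.386 and 0.233 in the vector libraries and 0.252, 0.221 and 0.217 in the netrin-1 libraries. The libraries with the low summits were those with the large share in the shoulders.

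Decay was read as the distance at which coverage above the flank had fallen to 50%, 25% or 10% of the summit, averaged over both sides. The 50% distance came to 320, 350 and 275 bp in the vector libraries and 270, 265 and 270 bp in the netrin-1 libraries. The 25% distance was 845, 925 and 580 bp in the vector libraries and 605, 550 and 550 bp in the netrin-1 libraries. At 10% the distances had spread to 1460, 1560 and 1065 bp in the vector libraries and 1100, 1005 and 990 bp in the netrin-1 libraries. Vector replicates 1 and 2 reached farthest at each level, and vector replicate 3 was within the span of the netrin-1 libraries at the lower levels and 5 bp above it at 50%.

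Beyond the peak, the coverage above the flank fell with distance up to 2000 bp. A straight line through its logarithm from 500 to 1500 bp gave the distance over which the signal drops by a factor of e, as a mean rate over that stretch. This e-fold length came to 709, 754 and 526 bp in the vector libraries and 534, 481 and 467 bp in the netrin-1 libraries. Up to 2000 bp the decay steepened with distance in every library. In vector replicates 1 and 2 the e-fold length was 777 and 838 bp between 500 and 1000 bp and 596 and 619 bp between 1500 and 2000 bp. In the other 4 libraries it was 491 to 564 bp in the nearer stretch and 365 to 460 bp in the farther one. From 2000 to 2500 bp, where little coverage remained above the flank, it was 602 to 765 bp in all 6 libraries. The lowest bin lay within the flank in the vector libraries, but at -3210, -3120 and -3200 bp in the netrin-1 libraries. At 1.25, 1.19 and 1.20, these bins were below the netrin-1 flanks of 1.28, 1.24 and 1.25. The flank is thus not the floor of the netrin-1 profiles, which limits every measure taken above it. The order of the libraries by summit was vector 2, vector 1, netrin-1 1, vector 3, netrin-1 2 and netrin-1 3. The order by 10% distance and by shoulder share was exactly the reverse, though both measures are divided by the height of the peak and so are tied to it.

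**Figure D2:**
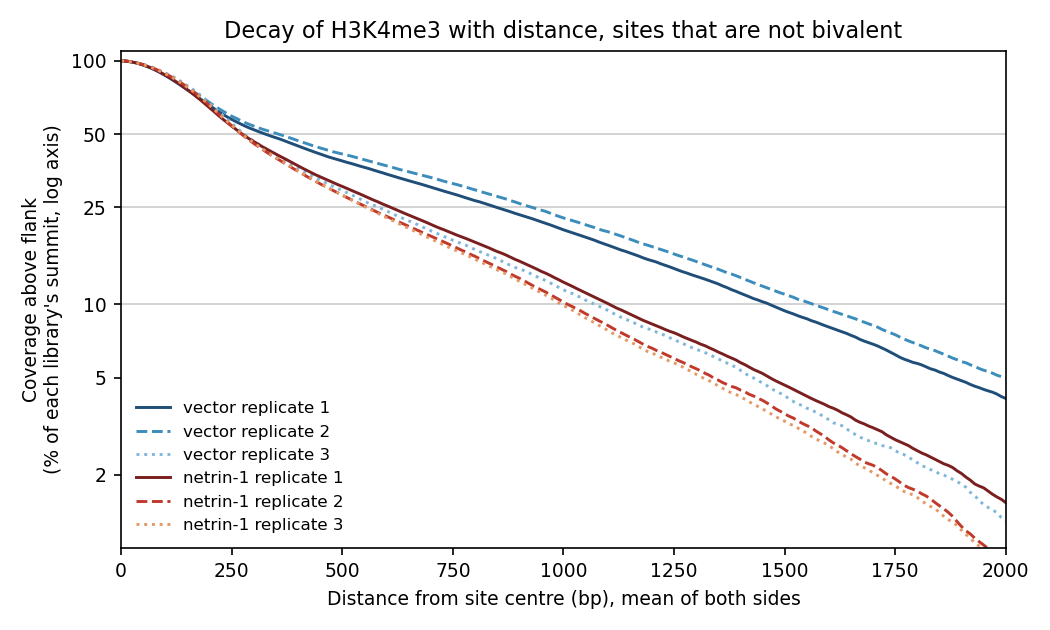
Coverage above the flank as a percentage of each library's summit (log axis) against distance from the centre in bp, averaged over both sides, 1 line per library. The lines run together to about 250 bp, after which vector replicates 1 and 2 stay above the other 4 libraries and reach 10% at 1460 and 1560 bp instead of 990 to 1100 bp.

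With the scaling of the authors, the spread between libraries nearly vanished at a similar distance on either side. The bins given were picked as those of least spread within 2000 bp, and the spread with other scalings was not tested. At -920 bp the 6 libraries lay between 3.82 and 3.94, with a coefficient of variation (CV, the SD over the mean) of 1.05%. On the other side the lowest CV was 1.02%, at 930 bp, with values from 3.77 to 3.87. At the centre the CV was 27.2% and the values ran from 11.8 to 23.7. At 2000 bp the CV was 8.83%. There vector replicates 1 and 2, the lowest at the centre, were the highest, and vector replicate 3 was the lowest. Coverage at 2000 bp, averaged over both sides, was 1.66, 1.69 and 1.37 in the vector libraries and 1.55, 1.44 and 1.44 in the netrin-1 libraries. At 4000 bp, by contrast, the netrin-1 libraries were at 1.26 to 1.28 and the vector libraries at 1.15 each. At bivalent sites, measured in the same libraries, the lowest CV within 2000 bp was 14.4% on the negative and 12.3% on the positive side, near the end of that window, at -1940 and 1970 bp.

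The profile was close to symmetric. Whether the sites were turned by the strand of a gene is not given in the sources used here, so the sides are called negative and positive. Mean coverage on the negative side within 1000 bp, divided by that on the positive side, was 1.006, 1.005 and 1.013 in the vector libraries and 1.016, 1.021 and 1.020 in the netrin-1 libraries. The 2 sets of ratios did not overlap, but the group means of 1.008 and 1.019 differ by only 0.0107. The small excess on the negative side was present within 250 bp, at 1.008 to 1.020. Between 2000 and 3500 bp the positive side was the higher one in all 6 libraries, with ratios of 0.961 to 0.983. Mirrored bins differed by a median of 1.36% to 2.22% and by at most 3.88% to 8.77%, and within 1000 bp by at most 1.09% to 4.28%.

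The series asks how the profile differs in cells expressing netrin-1. Within 250 bp of the centre, the mean coverage of the vector libraries was 10.9, 9.92 and 17.7 and that of the netrin-1 libraries 15.7, 19.1 and 19.6. Vector replicate 3 lay above netrin-1 replicate 1, so the groups overlapped. The means were 12.8 ± 4.22 and 18.1 ± 2.14 (SD, n = 3 each), a log2 ratio of netrin-1 over vector of 0.50 (exact permutation p = 0.2, adjusted p = 0.24 over 12 measures). With vector replicate 3 left out, the log2 ratio was 0.80. With 3 libraries against 3, the smallest possible p is 0.1, so no comparison of the lines can pass 0.05. The summit had a log2 ratio of 0.52 (exact permutation p = 0.2), and of 0.82 without vector replicate 3.

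In the shoulders the log2 ratio was 0.34 between 250 and 500 bp and 0.12 between 500 and 1000 bp (exact permutation p = 0.2 for both). Without vector replicate 3 these ratios were 0.51 and 0.15. Between 1000 and 2000 bp the vector libraries had 2.42, 2.45 and 2.11 and the netrin-1 libraries 2.25, 2.16 and 2.14. The log2 ratio there was -0.092 (exact permutation p = 0.4). It was -0.16 once vector replicate 3 was left out. Between 2000 and 3500 bp the log2 ratio was 0.027 (exact permutation p = 0.8) with all libraries and -0.027 without vector replicate 3. The ratio of the group means passed through 1 at -940 and 960 bp, and again at -2480 bp and between 2330 and 2380 bp. It was highest at -40 bp, with a log2 ratio of 0.52, and lowest at 1350 bp, with -0.13.

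The flank was the distance range in which the cell lines did not overlap. It stood at 1.17, 1.17 and 1.11 in the vector libraries and at 1.28, 1.24 and 1.25 in the netrin-1 libraries. The log2 ratio was 0.13 (exact permutation p = 0.1, adjusted p = 0.24), and 0.11 without vector replicate 3. This direction depended on the scaling, since with each library divided by its profile mean the log2 ratio in the flank was -0.088 (exact permutation p = 0.5). Bin by bin, all netrin-1 libraries exceeded all vector libraries in 212 of 801 bins, or 26.5%, and were all lower in 0 bins. With each library divided by its flank these counts were 19 higher and 491 lower, and divided by its profile mean they were 0 higher and 23 lower. Most of the 212 lay in 2 runs at the edges, from -4000 to -3310 bp and from 2960 to 4000 bp. The bins near the crossing, from -890 to -770 bp and from 790 to 890 bp, held most of the others. Neighbouring bins share fragments and are not independent.

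**Figure D3:**
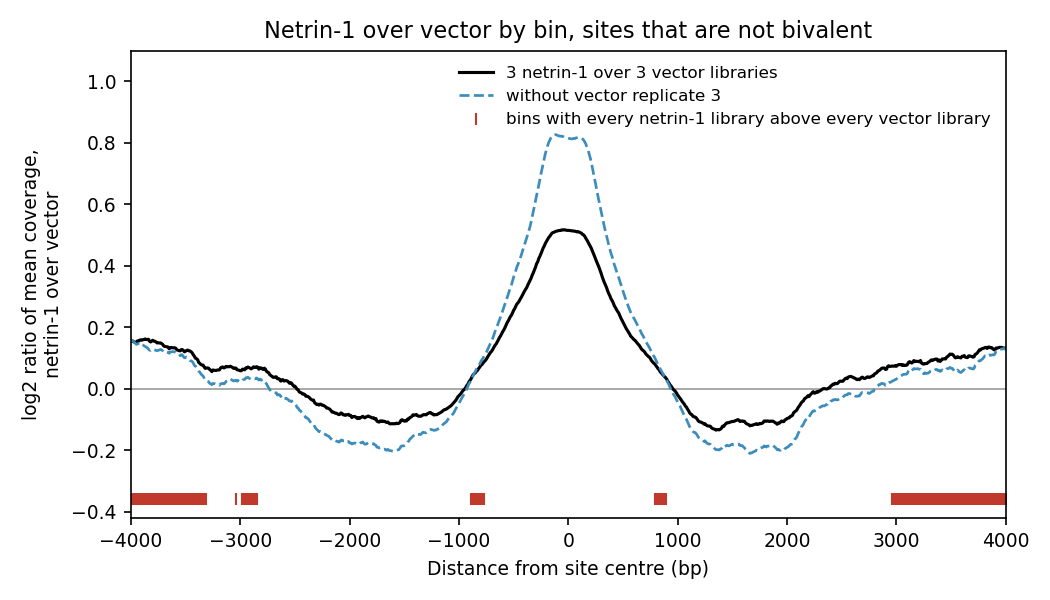
Log2 ratio of mean coverage in netrin-1 over vector libraries against distance in bp, for 3 against 3 libraries (black) and without vector replicate 3 (dashed). Red marks stand for the 212 bins in which the netrin-1 libraries all exceeded the vector libraries, which are absent from the centre, where the black line reaches 0.52. Divided by the flank of each library, 19 bins were higher and 491 lower instead.

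Measures of shape were compared between the lines in the same way. The width midway between flank and summit was 640, 700 and 550 bp in the vector libraries and 540, 530 and 540 bp in the netrin-1 libraries. The groups were 1 bin apart at their nearest, and the log2 ratio was -0.23 (exact permutation p = 0.1, adjusted p = 0.24). It came to -0.32 when vector replicate 3 was left out. The widths of the lines overlapped with height taken above 0 (exact permutation p = 0.2) and with the mean within 50 bp as summit (p = 0.4 by the same exact test). The 10% distance was 1362 ± 262 bp in vector and 1032 ± 59.7 bp in netrin-1 cells (SD, n = 3 each), a log2 ratio of -0.40 (exact permutation p = 0.2). The shoulder share was 0.325 ± 0.0815 and 0.230 ± 0.0194 (SD, n = 3 each), a log2 ratio of -0.50 (exact permutation p = 0.2). Of the 12 measures, the flank, the width and the side ratio had no overlap between the lines with the settings used here, and the flank and the width overlapped under the alternatives just given. Other settings removed overlap. From 1000 to 2000 bp the log2 ratio was -0.35 with the flank subtracted and -0.22 divided by the flank (exact permutation p = 0.1 for both). From 2000 to 3500 bp it was -1.18 and -0.10 in these settings (exact permutation p = 0.1 for both). Both settings rest on the flank, which is not the floor of the netrin-1 profiles. The log2 ratio of the side ratio was 0.015 (exact permutation p = 0.1, adjusted p = 0.24). Leaving out vector replicate 3 moved the log2 ratios to 0.019 for the side ratio, -0.55 for the 10% distance and -0.69 for the shoulder share.

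**Figure D4:**
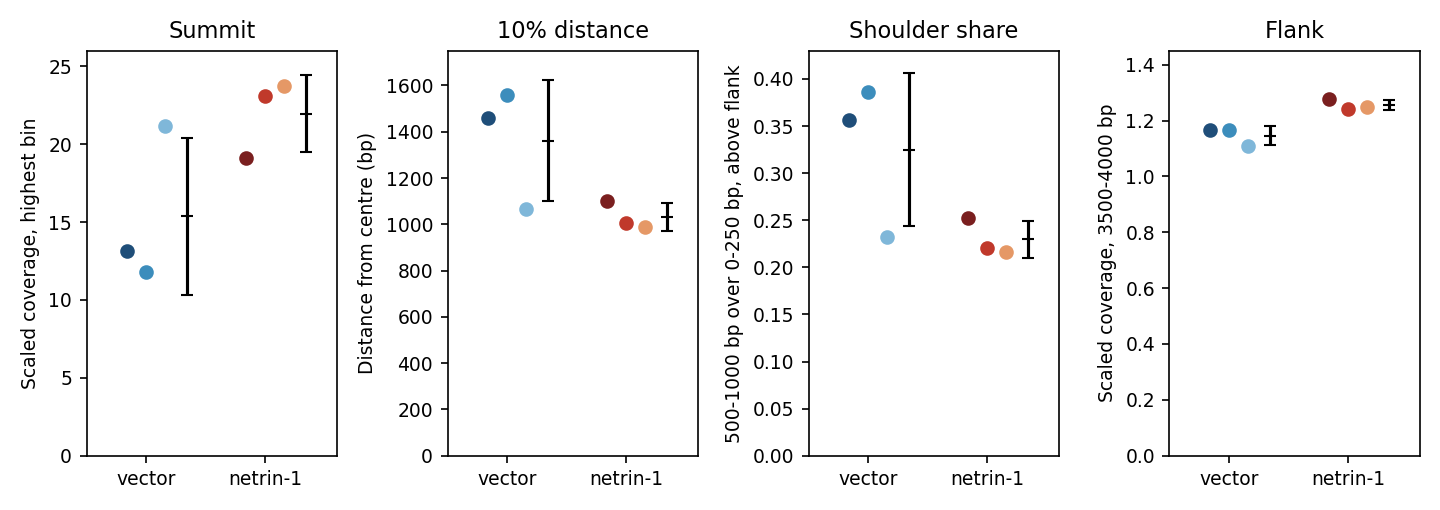
Summit coverage, 10% distance in bp, shoulder share and flank coverage, with 1 point per library and the group mean ± SD (n = 3) beside it. Vector replicate 3, the lightest blue point, lies among the netrin-1 libraries for the first 3 measures and is the lowest library for the flank.

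The yield of the libraries moved with these measures. If the windows of neighbouring sites did not overlap, the tags within 1000 bp of the sites would make up 30.4%, 28.7% and 41.3% of all tags in the vector libraries and 38.2%, 44.0% and 45.1% in the netrin-1 libraries. These values take the inferred 22595 sites and HOMER's usual scaling as given. That site number is the smallest that fitted, and a larger one would raise the values. This share ranks the libraries as the summit does, which it contains. Its part in the differences of height and decay was not tested.

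Bivalent sites, averaged from the same 6 libraries, served for comparison. The shoulder share was lower at non-bivalent sites in 6 of 6 libraries, with means of 0.277 ± 0.0744 against 0.421 ± 0.0484 (SD, n = 6). The mean log2 ratio of non-bivalent over bivalent was -0.63 ± 0.278 (SD). An exact sign-flip permutation test over libraries gave p = 0.0312, the smallest that 6 libraries allow. The adjusted p was 0.0729 over all 7 measures compared between the classes, above 0.05, and 0.0417 over the 4 of them in the design, so the call depends on which measures are counted. The flank was higher at non-bivalent sites in 6 of 6 libraries, 1.201 ± 0.0647 against 0.737 ± 0.0700 (SD, n = 6), a ratio of 1.63 with the same p-values by the exact permutation test. These p-values cover the libraries and not the sites, and the libraries belong to 2 lines.

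The sides also differed between the classes. The ratio of negative to positive side within 1000 bp was 1.01 ± 0.00678 at non-bivalent and 1.29 ± 0.0619 at bivalent sites (SD, n = 6), and it was lower at non-bivalent sites in all 6 libraries (exact permutation p = 0.0312, adjusted p = 0.0729 over 7 and 0.0417 over 4 measures). The bivalent profile has a narrow feature beside its centre, with the highest bin at -170 to -190 bp. Its edges were steep and lay about the length of a fragment apart. In vector replicate 1 the bivalent coverage rose from 10.8 at -220 bp to 15.2 at -200 bp. It fell there from 13.8 at -10 bp to 9.26 at 10 bp. Without the bins from -350 to 150 bp the mean log2 ratio of the side ratios was -0.13 instead of -0.34, still lower at non-bivalent sites (exact permutation p = 0.0312). Within 250 bp the side ratio was 1.42 to 1.77 at bivalent and 1.008 to 1.020 at non-bivalent sites. The largest mirrored-bin difference within 1000 bp, narrow feature included, was 50.8% to 80.5% at bivalent and 1.09% to 4.28% at non-bivalent sites. Over the whole profile it was 53.7% to 97.4% at bivalent and 3.88% to 8.77% at non-bivalent sites. In vector replicate 3 and the netrin-1 libraries the bivalent maximum lay at 2900 bp, away from the narrow feature. That distance falls in another stretch with steep edges on the positive side. In vector replicate 3 the bivalent coverage rose from 1.205 at 2760 bp to 1.840 at 2770 bp. It fell from 2.018 at 2980 bp to 1.385 at 2990 bp. The bivalent profile averages fewer sites, an inferred 2590 against 22595, and the part of this in the differences was not tested. Whether the stretches with steep edges come from a few of these sites was not tested either. The side ratios and mirrored-bin differences therefore describe the averaged profiles and may not hold for most bivalent sites.

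**Figure D5:**
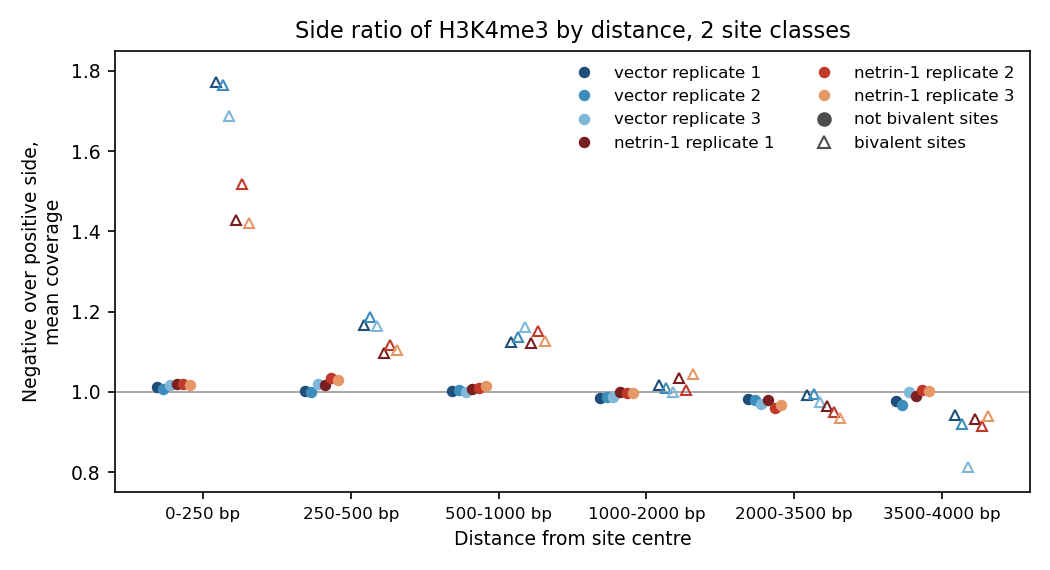
Mean coverage on the negative side divided by that on the positive side, by distance range in bp, for non-bivalent (filled circles) and bivalent sites (open triangles), 1 symbol per library. The circles stay between 0.961 and 1.034 in all 6 ranges, while the triangles within 250 bp lie at 1.42 to 1.77.

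Over the stretch from 500 to 1500 bp the decay had no common direction between the classes. The e-fold length was 579 ± 122 bp at non-bivalent and 564 ± 49.4 bp at bivalent sites (SD, n = 6), longer at non-bivalent sites in 3 of 6 libraries (exact permutation p = 0.844). The 3 were the vector libraries, with log2 ratios of 0.23, 0.24 and 0.028, and the netrin-1 libraries had -0.090, -0.13 and -0.18. The e-fold length thus ranged more widely between libraries at non-bivalent sites, from 467 to 754 bp, than at bivalent sites, from 516 to 638 bp. The 25% distance was 676 ± 165 bp at non-bivalent and 830 ± 69.4 bp at bivalent sites (SD, n = 6), shorter at non-bivalent sites in 5 of 6 libraries (mean log2 ratio -0.33, exact permutation p = 0.0938, adjusted p = 0.164 over 7 measures). The 10% distance was 1197 ± 248 bp against 1348 ± 112 bp (SD, n = 6), shorter in 4 of 6 libraries (mean log2 ratio -0.19, exact permutation p = 0.156, adjusted p = 0.219). With the mean within 50 bp as summit, these log2 ratios were -0.52 and -0.33, each with an exact permutation p of 0.0312. The width midway between flank and summit was 470 to 490 bp in the vector and 660 to 990 bp in the netrin-1 libraries at bivalent sites. On the positive side it ended at 130 to 140 bp in the vector libraries, within the narrow feature, and at 300 to 480 bp in the netrin-1 libraries. The bivalent width is thus tied to that feature, and its difference between the lines was not tested. The width was longer at non-bivalent sites in 3 of 6 libraries (mean log2 ratio -0.11, exact permutation p = 0.656), and -0.95 on that scale with the mean within 50 bp as summit (exact permutation p = 0.0312).

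The difference between the lines was then set against that at bivalent sites. Between 1000 and 2000 bp the log2 ratio of netrin-1 over vector was -0.092 at non-bivalent and 0.41 at bivalent sites. Within each library, the log2 ratio of non-bivalent to bivalent coverage came to 0.17, 0.20 and -0.44 in the vector and -0.36, -0.60 and -0.63 in the netrin-1 libraries. Scaling of a library cancels in this ratio. The mean was lower in netrin-1 cells by 0.51 (difference -0.51, exact permutation p = 0.2, adjusted p = 0.467 over 7 measures), and vector replicate 3 lay among the netrin-1 libraries. Leaving it out gave a difference of -0.72. Between 500 and 1000 bp the difference was -0.46 (exact permutation p = 0.2), while within 250 bp it was -0.059 (exact permutation p = 0.8), with log2 ratios of 0.50 at non-bivalent and 0.51 at bivalent sites. Without vector replicate 3 these differences were -0.67 and -0.20. After subtraction of the flank, the difference from 1000 to 2000 bp was -0.83 with all libraries (exact permutation p = 0.1). That p is the smallest possible, and the lines did not overlap in this setting. At bivalent sites, all netrin-1 libraries exceeded all vector libraries in 382 of 801 bins (47.7%) with the scaling of the authors. There the ratio of the means never passed through 1. Neither was recomputed with other scalings. At non-bivalent sites these moved the count from 212 to 19 divided by the flank and to 0 divided by the profile mean.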

How the data were processed

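H3K4me3 coverage was analysed in 6 libraries, 3 per cell line, grouped by sample title. The coverage signal was deposited by the authors as profiles averaged over sites, in 801 bins spaced 10 bp apart, with 1 column per library. BWA, Picard, MACS2, HOMER and the build mm9 are named in the submitters' processing notes, without roles or versions; duplicate removal, the choice of sites and the scaling are not stated there. Site numbers and totals were inferred from the steps of the values in all 4 deposited tables. A search of 500 to 20000 sites and fragments of 190 to 225 bp gave 2590 bivalent sites. With scaling factors up to 120 hundredths, multiples up to 7770 also fitted, so the site numbers are the smallest possible. Values were read in 6 fixed distance ranges and at fixed positions. Cell lines were compared by two-sided exact permutation of library labels (20 arrangements) and site classes by exact sign flips within libraries (64 arrangements), with Benjamini-Hochberg adjustment. Sites, ranges and measures were chosen with earlier results of these data known. The 25% and 10% distances and e-fold length between classes, the lines' difference between classes, counts of bins, spread by bin, area shares, slopes and the share of tags were added after seeing the data. Functions were tested on simulated profiles. Python 3.11.15, NumPy 2.4.6, pandas 2.3.3 and Matplotlib 3.10.9 were used.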

Additional observations from a re-analysis of the deposited data

How the results depend on the processing

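Of 150 recomputed values for the 12 comparisons of the lines, 142 kept their direction. None could pass 0.05, so this says nothing of stability. Divided by the flank, the log2 ratio was -0.017 from 500 to 1000 bp and -0.10 from 2000 to 3500 bp; divided by the profile mean it was -0.10 and -0.20 there, and -0.088 in the flank. From 2000 to 3500 bp it was -1.18 after flank subtraction, and -0.027 to 0.058 when each library was left out in turn. In the worst case of rounding, with scaling factors kept in hundredths moved by up to 2.38% against the difference, it was -0.028 there, 0.077 in the flank and -0.038 from 1000 to 2000 bp. The count of bins with all netrin-1 libraries higher was 19 divided by the flank, 0 divided by the profile mean and 87 in the worst case of rounding, and 214 to 374 with 1 library left out, highest without netrin-1 replicate 1. The count with all lower was 491, 23 and 0 in the same settings and 0 to 300 with 1 library left out, highest without vector replicate 3. The cause of these changes was not tested.

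For the site classes, leaving out 1 library gave mean log2 ratios of non-bivalent over bivalent of -0.71 to -0.58 for the shoulder share, -0.36 to -0.33 for the side ratio and 0.68 to 0.73 for the flank. None of these can pass 0.05, since the smallest p with 5 libraries is 0.0625. The vector and the netrin-1 libraries alone gave -0.40 and -0.87, -0.41 and -0.28, and 0.76 and 0.66. The width went from -0.24 to 0.044 with 1 library left out, highest without netrin-1 replicate 1, and was 0.39 in the vector libraries. With the mean within 50 bp as summit, it was -0.95, and the 25% and 10% distances -0.52 and -0.33, each with an exact permutation p of 0.0312. The 10% distance was 0.23 with heights above 0 and 0.012 in the vector libraries. The e-fold length was -0.030 to 0.054 with 1 library left out and -0.13 in the netrin-1 libraries. The difference of the lines between classes was -0.20 to 0.024 within 250 bp and -0.018 to 0.18 at the summit with 1 library left out.

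Same-numbered libraries of the lines deviated from their group means with correlations across bins of 0.985, -0.949 and 0.986. All pairs of a vector and a netrin-1 library had correlations of -0.986 to -0.949 or of 0.951 to 0.986. This check therefore cannot tell whether the numbers pair the libraries. With the replicate block the log2 ratio was 0.54 within 250 bp, -0.22 for the width and 0.13 for the flank (exact permutation p = 0.25 for each, and no lower p exists for 3 pairs). The block changed no call and no direction. Strand-specific tag profiles were not run.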
